A study of Drosophila melanogaster with 14 samples.

Results

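The transcripts described here are those of 10 cell cycle genes of Drosophila melanogaster, taken by gene symbol from a deposited table of 17869 genes: the cyclin genes CycA, CycB, CycB3, CycD and CycE, the kinase genes Cdk1, polo, aurA and aurB, and stg, which encodes the phosphatase String. All 10 were in the table, and all 10 passed the filter on low values that left 12586 genes for testing. The genes were listed by name, with earlier results of these data known. Polyadenylated RNA of whole larvae was sequenced in bulk from 4 genotypes. The control was the w1118 stock (4 libraries), which carries a mutation of the eye colour gene white. The Sep2 mutant carried the allele Sep2[2] (3 libraries), the Sep5 mutant the allele Sep5[2] (3 libraries), and the double mutant both alleles, which the series text calls homozygous (4 libraries). The labels place the larvae in the last larval instar and give no hour within it. They do not say whether the mutants share the background of the control stock.

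Cyclins are the activating subunits of cyclin-dependent kinases, and their levels rise and fall with the division cycle. In Drosophila, Cyclin D with Cdk4 and Cyclin E with Cdk2 act in growth and in entry into DNA replication, while Cyclins A, B and B3 bind Cdk1 to drive mitosis. String, a Cdc25 phosphatase, removes inhibitory phosphates from Cdk1, and its transcription times mitosis in many fly tissues. Polo kinase and Aurora A act at centrosomes and the spindle, and Aurora B at chromosomes and the cleavage furrow. In a larva most growth is by cells that replicate their DNA without dividing, in fat body, salivary gland, gut and epidermis, whereas imaginal discs, neuroblasts and the gonads divide by mitosis. Septins, the products of the mutated genes, are GTP-binding proteins that form filaments, first described in the division of budding yeast.

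Reads per library ranged from 8858393 to 47203028, and each of the 10 genes had at least 71 reads in every library. Mitochondrial large ribosomal RNA made up 10.6% to 24.9% of the reads of double mutant libraries and 4.74% to 11.8% of those of the other 3 genotypes. Larval serum protein and other fat body markers summed to 17713 CPM (counts scaled to the size of the library) or more in every library, and 8 markers of the adult stage to 4.95 CPM at most. Septin2, the gene hit by Sep2[2], was at 5.55 to 6.07 log2 CPM in the control and at 4.44 to 4.88 in the Sep2 mutant. The ranges did not overlap, although the difference was not called (limma adjusted p = 0.410). The fit pooled the spread of all genotypes, and the SD of Septin2 was 2.05 log2 CPM in the double mutant. It was 0.25 in the control and 0.22 in the Sep2 mutant. The missing call therefore cannot be read as an unchanged Septin2 level in the Sep2 mutant. In the double mutant Septin2 was at -1.52 to -0.31 in 3 libraries and at 3.20 in replicate 4. Results of the double mutant are therefore given below also without that library where it matters. Septin5 had 2 reads over the 3 Sep5 mutant libraries and 3 to 15 reads per library in the double mutant, against 90 or more in each control library. Separate animals or cultures are not named for the libraries of a genotype, so a p-value here weighs a difference against the spread between libraries, part of which may be technical.

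Levels are given as log2 CPM, scaled between libraries by the authors. To order the genes by level, CPM values were divided by the length of each gene's exons, as CPM per kilobase. In the control polo was highest at 34.9 ± 4.18 CPM per kilobase (SD, n = 4), followed by CycB at 27.1 ± 1.52 and CycA at 24.3 ± 2.69. Cdk1 stood at 17.6 ± 2.56, and a group of 4 genes, aurA, CycB3, stg and CycD, between 12.4 and 13.9. The lowest were aurB at 9.03 ± 0.819 and CycE at 7.36 ± 1.62 CPM per kilobase. CycB and CycA, Cdk1 and aurA, the 4 genes of the middle group, and aurB and CycE were closer to their neighbours in this order than the sum of their SDs. In the double mutant polo was again first, at 18.7 ± 2.32 CPM per kilobase, and CycD stood in the fourth place at 11.9 ± 1.88, next to CycA at 13.9 ± 0.759 and CycB at 13.1 ± 1.53. CycD was within the sum of the SDs of both CycA and CycB in the double mutant, while in the control both stood above it by more than that. Cdk1 at 11.1 ± 1.17 and aurA at 9.81 ± 3.71 came next after CycD in the double mutant. Both were also within the sum of the SDs, so the place of CycD was not distinct from theirs.

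**Figure D1:**
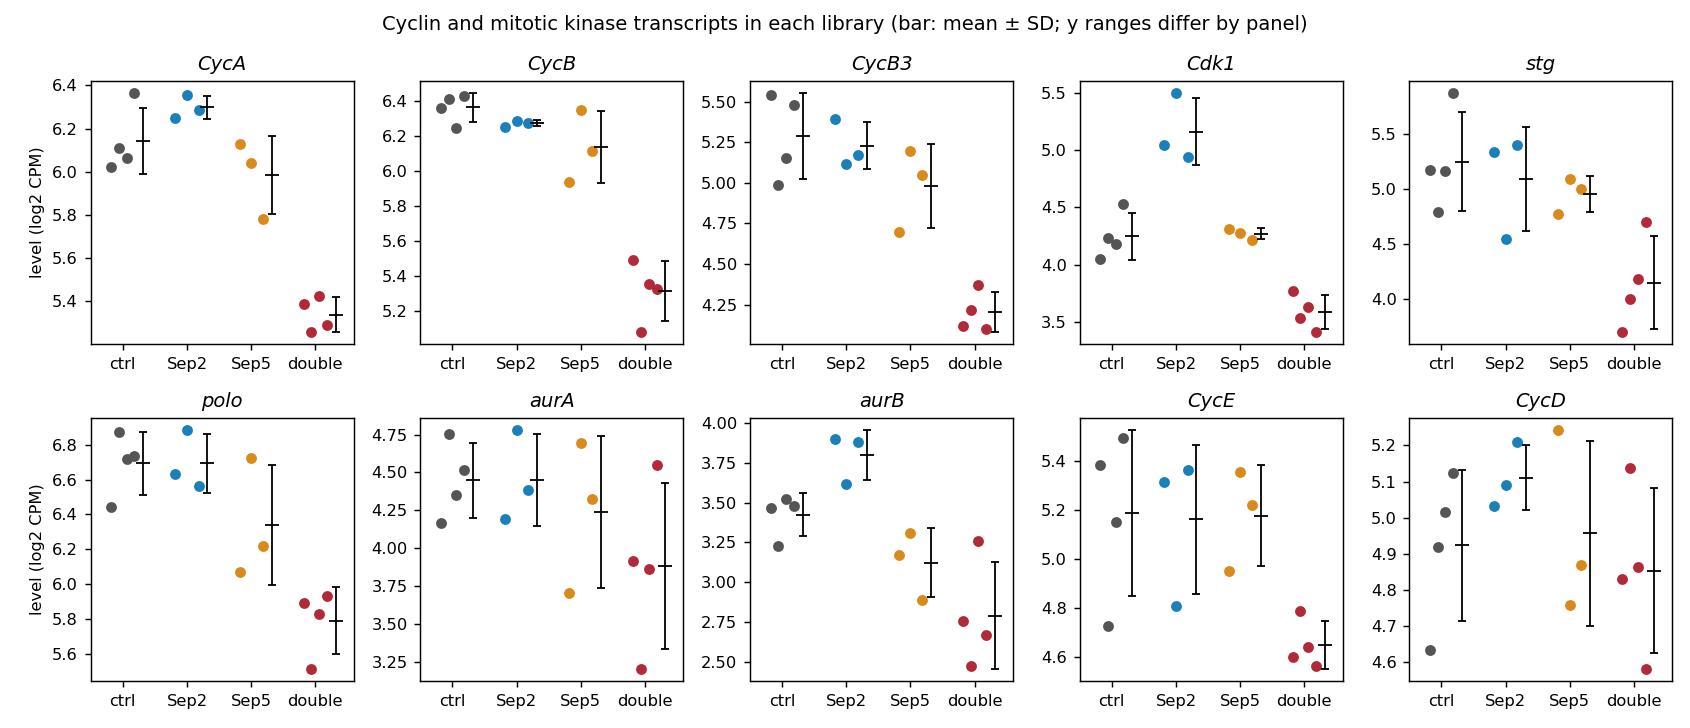
Level of each of the 10 transcripts (log2 CPM, y axis; ranges differ by panel) in every library of the control (ctrl), the Sep2 mutant, the Sep5 mutant and the double mutant; points are libraries and bars are mean ± SD. The 4 double mutant libraries lie below all others for CycA, CycB, CycB3, Cdk1 and polo, the 3 Sep2 mutant libraries lie above all others for Cdk1, and CycD shows no separation of genotypes.

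The first comparison asks how these transcripts differ when both septin genes are mutant. In the double mutant 8 of the 10 were lower than in the control: the cyclins of mitosis CycB3, CycB and CycA at 47.1% to 57.4% of the control level, stg at 46.6%, polo at 53.5%, and Cdk1, aurB and CycE at 63.2% to 68.8%. None was higher. Among all genes 45.0% were called in this comparison and 22.5% were called lower. The median difference of the 10 genes was -0.73 on the log2 scale, and that of all tested genes -0.01. In 6 of the 10 genes every double mutant library was below every control library, which was so for 19.4% of all genes. RNA was taken from whole larvae, so fewer cells of a type and less RNA per cell cannot be told apart in any of these values.

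CycB encodes a partner of Cdk1 in mitosis and lies on chromosome arm 2R (BDGP6, positions 22803521 to 22806948, minus strand). Its level was 6.36, 6.42, 6.25 and 6.43 log2 CPM in control replicates 1 to 4, and 5.49, 5.08, 5.35 and 5.33 in the 4 double mutant libraries. The groups did not overlap, and the gap between the lowest control and the highest double mutant library was wider than the whole range of either group. CycB fell by 1.05 on the log2 scale (SE 0.13, limma adjusted p = 5.82e-05), to 48.2% of the control with a 95% interval of 39.6% to 58.7%. CycA, which acts from DNA replication into mitosis (arm 3L, 11826719 to 11833578, minus strand), was at 6.02, 6.11, 6.06 and 6.36 log2 CPM in the control and at 5.39, 5.26, 5.42 and 5.29 in the double mutant. Its 4 double mutant libraries lay close together, below every control library. The difference for CycA was -0.80 (SE 0.13, adjusted p = 0.000318). A gene on the opposite strand inside the CycA locus, CG7264, which shares no exon bases with it, was lower as well (-1.66, SE 0.33, adjusted p = 0.00123).

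CycB3, a B-type cyclin that is not essential for most fly mitoses, lies on arm 3R (24867934 to 24870816, minus strand). Control replicates 1 to 4 had 5.54, 4.99, 5.15 and 5.48 log2 CPM, and the double mutant libraries 4.12, 4.22, 4.37 and 4.10. The groups were again apart, with the lowest control library above the highest double mutant library. CycB3 fell by 1.09 (SE 0.16, adjusted p = 0.000214). For these 3 cyclins the call was kept under each of the 24 alternative settings tried, with an adjusted p of at most 0.00494 for CycA, 0.00147 for CycB and 0.00317 for CycB3.

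Cdk1 (arm 2L, 10384739 to 10386262, minus strand) was at 4.05, 4.23, 4.18 and 4.53 log2 CPM in the control and at 3.76, 3.53, 3.63 and 3.41 in the double mutant. Every double mutant library was below every control library, with a narrower gap than for the cyclins. Its difference was -0.66 (SE 0.16, adjusted p = 0.00475). The activator gene stg (3R, 29251826 to 29255800, minus strand) had 5.17, 4.79, 5.16 and 5.87 log2 CPM in the control and 3.69, 3.99, 4.18 and 4.70 in the double mutant. The groups did not overlap, but stg was the most variable of the 10 genes within the control. It fell by 1.10 (SE 0.26, adjusted p = 0.00422), and by 1.29 without double mutant replicate 4, the library highest for stg in that genotype and also the one with the most Septin2 reads. Cdk1, stg, polo and aurB kept their calls in all 24 alternatives, with the highest adjusted p at 0.0441 for Cdk1, 0.0138 for stg, 0.00677 for polo and 0.0435 for aurB.

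The kinase gene polo (3L, 20309654 to 20313466, plus strand) was at 6.45, 6.87, 6.72 and 6.74 log2 CPM in the control and at 5.89, 5.51, 5.83 and 5.93 in the double mutant. The groups did not overlap, and polo fell by 0.90 (SE 0.17, adjusted p = 0.000898). Both Aurora genes were less clear. aurB (2L, 10856797 to 10858094, minus strand) was the gene with the fewest reads of the 10, at 3.47, 3.22, 3.52 and 3.48 log2 CPM in the control and 2.75, 2.47, 3.26 and 2.67 in the double mutant. Double mutant replicate 3, the library with the fewest reads, reached into the control range, while the other 3 were below it. The difference for aurB was -0.63 (SE 0.19, adjusted p = 0.0136).

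aurA (3R, 11963124 to 11964826, plus strand) had 4.17, 4.75, 4.35 and 4.52 log2 CPM in the control and 3.91, 3.21, 3.86 and 4.55 in the double mutant. Replicate 4 of the double mutant was as high as the controls, and the other 3 libraries were below all of them. The difference, -0.57 (95% interval -1.15 to 0.02, adjusted p = 0.106), was not called with all libraries, and it was -0.79 (adjusted p = 0.0286) without double mutant replicate 4. Of the exon bases of aurA 9.70% are shared with CG12213 on the other strand, which did not differ from the control at the threshold (-0.03, adjusted p = 0.913). No source used here says whether the authors' counting used strand.

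Of the 2 cyclins that act before DNA replication CycD was not called and CycE was. CycD (X, 15906822 to 15909676, minus strand), the partner of Cdk4, was at 4.64, 4.92, 5.02 and 5.12 log2 CPM in the control and 4.83, 5.14, 4.86 and 4.58 in the double mutant. The 2 ranges overlapped almost whole. Its difference was -0.07 (95% interval -0.42 to 0.28, adjusted p = 0.756), which leaves room for a level of 74.7% to 121% of the control. CycE (2L, 15727581 to 15748150, minus strand), which drives entry into S phase, was at 5.38, 4.73, 5.15 and 5.49 in the control and 4.60, 4.79, 4.64 and 4.56 in the double mutant. Control replicate 2 was as low as the double mutant, and the other 3 control libraries were higher. CycE fell by 0.54 (SE 0.18, adjusted p = 0.0284), a call that was lost in 7 of the 24 alternatives, including without control replicate 1 (adjusted p = 0.0734), without control replicate 4 (0.0831) and without double mutant replicate 1 (0.0578), 3 (0.0537) or 4 (0.0619). Of the CycE exon bases 4.91% are shared with antisense RNAs.

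**Figure D2:**
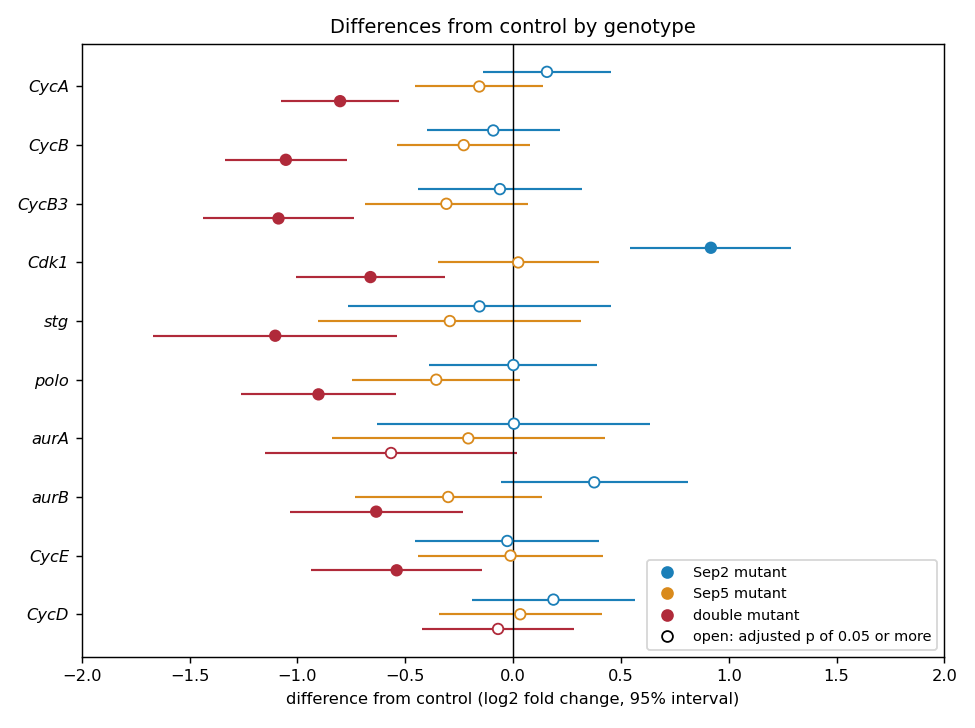
Difference of each mutant from the control (log2 fold change, x axis) for the 10 genes; points are limma estimates, lines are 95% intervals, filled points have an adjusted p under 0.05. The double mutant has 8 filled points, all on the left, from -0.54 for CycE to -1.10 for stg; the Sep2 mutant has 1, Cdk1 at 0.92; the Sep5 mutant has none.

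The Sep2 mutant was compared with the control to ask what this mutation does alone. Only Cdk1 was called, and it was higher: 5.04, 5.50 and 4.94 log2 CPM in the Sep2 mutant libraries against 4.05 to 4.53 in the control. All 3 libraries were above all 4 controls, and also above every library of the Sep5 mutant and the double mutant. Cdk1 rose by 0.92 (SE 0.17, adjusted p = 0.00693), to 1.89-fold of the control, in a comparison in which 4.50% of all genes were called and 3.26% were called higher. The call was kept in all 24 alternatives, with an adjusted p of 0.00494 to 0.0429. In CPM per kilobase Cdk1 stood at 33.5 ± 7.20 (SD, n = 3), against 17.6 ± 2.56 in the control.

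None of the other 9 genes was called in the Sep2 mutant, the cyclin partners and the activator of Cdk1 included. CycB was at 6.26, 6.29 and 6.28 log2 CPM, within the control range, with a difference of -0.09 (95% interval -0.40 to 0.22). CycA differed by 0.16 (-0.14 to 0.45), CycB3 by -0.06 (-0.44 to 0.32) and stg by -0.16 (-0.77 to 0.45). The 2 kinase genes polo and aurA each differed by 0.00, with intervals of -0.39 to 0.39 and -0.63 to 0.64. aurB was at 3.90, 3.62 and 3.88, above all 4 control libraries, with a difference of 0.38 (SE 0.20) that was not called (adjusted p = 0.297). Higher values without overlap were seen in 13.4% of all genes here. CycD and CycE differed by 0.19 and -0.03 and were not called.

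Within single libraries the same shift of Cdk1 shows as a ratio that needs no scaling between libraries. CycA exceeded Cdk1 by 1.90 on the log2 CPM scale in the control (range 1.84 to 1.98) and by 1.14 in the Sep2 mutant (0.86 to 1.34). CycB exceeded it by 2.12 (1.91 to 2.32) and 1.11 (0.79 to 1.33). In the Sep5 mutant and the double mutant both ratios were nearer to the control than in the Sep2 mutant. They were 1.71 and 1.75 for CycA over Cdk1, and 1.87 and 1.73 for CycB over Cdk1. The double mutant range of CycB over Cdk1, 1.54 to 1.92, only just reached that of the control.

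One neighbour of Cdk1 was also called in the Sep2 mutant. CG5096 lies on the opposite strand of arm 2L (10382263 to 10384723) and ends 15 bases from the end of Cdk1, so the 2 genes are transcribed towards each other. It was at 5.84, 6.32 and 6.22 log2 CPM in the Sep2 mutant against 4.84 to 5.49 in the control, a difference of 0.98 (SE 0.21, adjusted p = 0.0162) that was lost without Sep2 mutant replicate 2 or 3. In the double mutant CG5096 was at 6.24 to 6.71 and higher than in the control (1.24, SE 0.20, adjusted p = 0.000317), where Cdk1 was lower. In the Sep5 mutant, where Cdk1 differed by 0.02, CG5096 was at 0.75 above the control and not called (adjusted p = 0.0581). The other 8 tested genes near Cdk1 were not called in the Sep2 mutant, with mRpS7 at 0.46 and da at -0.13. Since strand use in the counting is not given, the part of reads from CG5096 in the Cdk1 result was not tested.

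Genes that work with the cyclins and kinases were read in the Sep2 mutant from lists. In a list of 19 genes of the E2F pathway and S phase, 3 rose (15.8%, against 3.26% of all genes called higher) and none fell, with a median difference of 0.46 against -0.02 for all genes. PCNA, the sliding clamp of DNA polymerase, was at 5.32, 5.35 and 5.50 log2 CPM in the Sep2 mutant and at 4.15, 4.04, 4.57 and 4.72 in the control. The groups did not overlap, and PCNA rose by 1.02 (SE 0.20, adjusted p = 0.00756), a call kept in all 24 alternatives. geminin, an inhibitor of replication licensing, rose by 0.60 (adjusted p = 0.0240), and RnrL, the large subunit of ribonucleotide reductase, by 0.88 (adjusted p = 0.0450). With the replicate number as a block both calls were lost, at adjusted p = 0.0542 and 0.0656. They were also lost without control replicate 1 or 2 and without Sep2 mutant replicate 2 or 3, and RnrL was called in 11 of 24 alternatives. Of 94 genes tested in the other 8 cell cycle lists 2 rose, or 2.13%, which is below the share of all genes. SMC2, of condensin, rose by 0.68 (adjusted p = 0.0247) and Mis12, of the kinetochore, by 0.85 (adjusted p = 0.0485). SMC2 lost its call without control replicate 1 or 2 and without any 1 of the 3 Sep2 mutant libraries, and Mis12 was called in 6 of 24 alternatives. These 5 genes were picked because they were called in this comparison. The control is shared by the comparisons of all 3 mutants.

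In the Sep5 mutant none of the 10 genes was called by limma, none had an unadjusted p under 0.05, and none was called by voom on the recovered reads. Among all genes 5.13% were called in this comparison. The estimates were below the control for 8 of the 10 genes, with a median of -0.22 against -0.01 for all genes, and above it for CycD (0.03) and Cdk1 (0.02). The lowest was polo at -0.36 (95% interval -0.75 to 0.03, adjusted p = 0.283), from 6.07, 6.73 and 6.22 log2 CPM. Replicate 1 of the Sep5 mutant had the lowest value of this genotype for CycB (5.94), CycB3 (4.69), CycE (4.95), polo (6.07), stg (4.77) and aurA (3.70), and replicate 2 the highest value for all 6. Cdk1 was at 4.31, 4.28 and 4.22, the narrowest spread of the 10 genes in this genotype.

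The double mutant was also set against each single mutant. Septin2 was at 4.44 to 4.88 log2 CPM in the Sep2 mutant and at -1.52 to 3.20 in the double mutant. The comparison of these 2 genotypes therefore does not isolate the Sep5 mutation. Against the Sep2 mutant 7 genes fell, where 28.9% of all genes were called and 12.9% called lower. Cdk1 differed most, by -1.58 (SE 0.17, adjusted p = 5.99e-05), from 4.94 to 5.50 log2 CPM down to 3.41 to 3.76. CycB3 fell by 1.03 (adjusted p = 0.00109), aurB by 1.01 (0.00275), CycA and CycB by 0.96 each (0.000335 and 0.000421), stg by 0.95 (0.0239) and polo by 0.90 (0.00285). The call of stg was lost without Sep2 mutant replicate 1 (adjusted p = 0.0991) or 3 (0.0785) and without double mutant replicate 1 (0.0581) or 2 (0.0517). CycE (-0.51), aurA (-0.57) and CycD (-0.26) were not called, and CycE was called without control replicate 2 (0.0445) and without Sep2 mutant replicate 2 (0.0414).

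Against the Sep5 mutant 4 genes fell, where 8.91% of all genes were called and 3.75% called lower. They were CycB (-0.82, adjusted p = 0.00343), CycA (-0.65, 0.0106), CycB3 (-0.78, 0.0145) and Cdk1 (-0.69, 0.0259). In 7 genes, these 4 and CycE, polo and stg, every double mutant library was below every Sep5 mutant library, which held for 8.76% of all genes. polo differed by -0.55 (adjusted p = 0.0773), stg by -0.81 (0.0916) and CycE by -0.53 (0.112), and none of these passed. The call of CycB was kept in every alternative run. Without Sep5 mutant replicate 2 CycA (adjusted p = 0.0600), CycB3 (0.0908) and Cdk1 (0.0962) were not called. Cdk1 was also lost without Sep5 mutant replicate 1 (0.0639), without double mutant replicate 2 (0.0527) or 4 (0.0625) and in a fit of only the 2 genotypes compared (0.0605). With double mutant libraries 1 and 2 alone CycB was called (0.0277), and CycA (0.0676), CycB3 (0.0735) and Cdk1 (0.157) were not. With the replicate number as a block stg was called (-1.01, adjusted p = 0.0150).

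The 2 single mutants differed from each other in Cdk1 alone among the 10 genes, which was higher in the Sep2 mutant by 0.89 (SE 0.19, adjusted p = 0.0199). In this comparison 2.43% of all genes were called and 1.13% called higher. The call rested on few libraries, since it was lost without Sep2 mutant replicate 1 (adjusted p = 0.0551) or 2 (0.0989) and without Sep5 mutant replicate 1 (0.0524) or 3 (0.0884). aurB was higher in all 3 Sep2 mutant libraries than in all 3 Sep5 mutant libraries (difference 0.68), and so was CycA (0.31), as were 9.53% of all genes, and neither was called.

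An interaction was tested as the difference between double and Sep2 mutant, less the difference between Sep5 mutant and control. Since Septin2 also differed between double and Sep2 mutant, the interaction does not isolate the Sep5 mutation. Cdk1 had an interaction of -1.60 (SE 0.25, adjusted p = 0.00315). Cdk1 differed by 0.02 between Sep5 mutant and control and by -1.58 between double and Sep2 mutant. The call held in all 23 alternatives, with an adjusted p of 0.00249 to 0.0175. CycA had an interaction of -0.80 (SE 0.20, adjusted p = 0.0351), with differences of -0.16 and -0.96. With the replicate number as a block the adjusted p of CycA was 0.0593, and CycA passed in 9 of 23 alternatives (adjusted p from 0.0204 to 0.109). With 1 library left out it passed in 3 of 14 cases, those without control replicate 4, Sep5 mutant replicate 3 or double mutant replicate 2. Among all genes 4.47% were called, and 2.26% with a value below 0. The interactions of the other 8 genes lay between -0.29 for CycD and -0.73 for CycB (adjusted p = 0.0559), all below 0 and none called.

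The balance between the cyclins themselves changed in the double mutant. Within a library CycB exceeded CycD by 1.44 on the log2 CPM scale in control libraries (range 1.24 to 1.73), by 1.16 with Sep2[2] (1.07 to 1.22), by 1.18 with Sep5[2] (0.70 to 1.60) and by 0.46 with both (-0.06 to 0.74). The control and double mutant ranges did not touch. CycA over CycD went from 1.22 (1.05 to 1.39) in the control to 0.49 (0.12 to 0.71) in the double mutant. The mean ratios of stg and polo to CycB were closer between genotypes. For stg relative to CycB they were -1.12, -1.18, -1.19 and -1.17 in the control, Sep2, Sep5 and double mutants, and for polo 0.33, 0.42, 0.20 and 0.48. The range of stg relative to CycB within the control alone was -1.63 to -0.56, wider than any difference between these means. CycB over Cdk1, also a pair of genes of mitosis, varied more, at 2.12, 1.11, 1.87 and 1.73 in the same order.

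**Figure D3:**
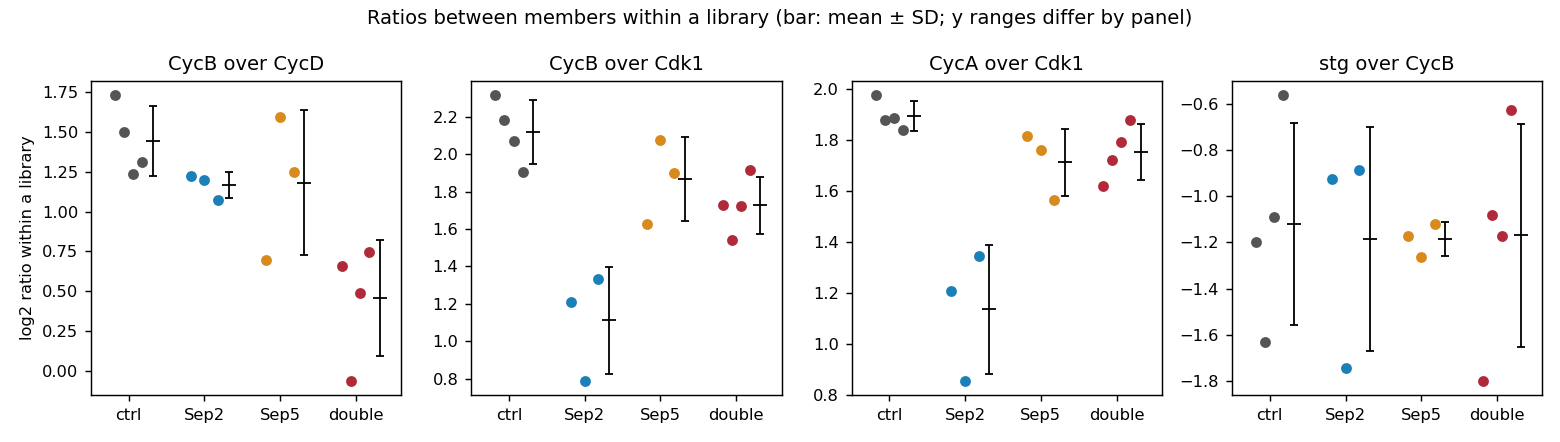
Ratios between pairs of the 10 transcripts within each library (log2, y axis; ranges differ by panel) by genotype; points are libraries and bars are mean ± SD. CycB over CycD is lower in the 4 double mutant libraries than in all others apart from 1 Sep5 mutant library at 0.70, both ratios to Cdk1 are lowest in the 3 Sep2 mutant libraries, and stg over CycB overlaps in all 4 genotypes.

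Over the 14 libraries the transcripts most alike in pattern among the 10 were CycB and polo, whose centred log2 values differed by a root mean square of 0.162, followed by CycA and CycB (0.179) and by CycB and CycB3 (0.180). The same measure was taken against 9998 other genes whose mean was 2 log2 CPM or more. CycB was nearest to cmet, which encodes a kinesin (0.0959), and then to DCAF12 (0.168). polo was nearest to sub (0.111) and Klp67A (0.139), which also encode kinesins, CycA to RhoU (0.146) and grp (0.151), and CycB3 to drl (0.163) and ap (0.165). The genes nearest to CycE were ph-d (0.147) and Apc2 (0.167), to aurB fzy (0.191) and Ote (0.196), and to stg Delta (0.194) and disco (0.196). Cdk1 had icln (0.176) and CG5958 (0.199) as its nearest genes, and aurA had CG4880 (0.191) and Ugt305A1 (0.196). CycD, which varied least with genotype, was nearest to CG40160 (0.0838) and Clamp (0.0857).

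Lists of genes that work with the cyclins and kinases were read in the double mutant against the control, beside a median of -0.01 for all genes and shares of 22.5% called lower and 22.5% called higher. Of 8 tested regulators of Cdk activity 4 (50.0%) fell and 1 rose, with a median of -0.65. Wee1, the kinase that inhibits Cdk1, fell by 0.83 (adjusted p = 0.00133), Cks30A, a small Cdk-binding subunit, by 0.95 (0.00190), and twe, the Cdc25 of meiosis, by 1.02 (0.00516). trbl, whose product promotes the breakdown of String, rose by 1.11 (0.00316). Both the inhibitor Wee1 and the activators stg and twe of Cdk1 were thus lower. Of 14 other cyclin and Cdk genes only Cdk4, the partner of Cyclin D, was called (0.67, adjusted p = 0.00512), and the median was 0.00.

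Of 11 partners of Aurora and Polo 5 fell, or 45.5% against 22.5% of all genes, and none rose (median -0.37). Among them were borr (-0.87, adjusted p = 0.00116) and Incenp (-0.61, 0.0206), subunits of the Aurora B complex, bora (-0.74, 0.0256), an activator of Aurora A, and SAK (-0.92, 0.00645), a Polo-like kinase of centriole duplication. Of 14 centrosome and spindle genes 7 (50.0%) fell and none rose (median -0.42), with asp (-0.75, 0.000774), Grip71 (-0.77, 0.00230), cnn (-0.74, 0.00482) and spd-2 (-0.61, 0.0142) the lowest in adjusted p. The count for Aurora and Polo partners was 2 of 11, no more than the share of all genes, without control replicate 1 or double mutant replicate 2, and 3 without double mutant replicate 1.

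Of 13 genes of condensin, cohesin and separase 5 fell, or 38.5% against 22.5% of all genes, and none rose (median -0.12): the condensin genes Cap-G (-0.89, adjusted p = 0.000230), barr (-0.52, 0.0103) and glu (-0.51, 0.0145), and the securin gene pim (-0.99, 0.00557) were among them. Of 14 genes of cyclin destruction by the anaphase-promoting complex 4 fell (median -0.29), or 28.6%, near the 22.5% of all genes: cort (-1.10, 0.00325) and fzy (-0.52, 0.0166), which encode activators of the complex, vih (-0.70, 0.0225), its ubiquitin-conjugating enzyme, and Rca1 (-0.56, 0.0226), an inhibitor. That count was 2 without control replicate 4 and without double mutant replicate 1 or 2. In the spindle checkpoint list 5 of 10 (50.0%) fell and 1 rose (median -0.38), with Zwilch (-0.62, 0.00501), Spindly (-0.56, 0.0182) and rod (-0.49, 0.0386) lower and Mad1 (1.17, 0.000194) higher. The 5 became 1 without control replicate 4, 2 without control replicate 2 or double mutant replicate 2, and 3 without control replicate 1 or 3, Sep2 mutant replicate 1 or double mutant replicate 1 or 3. The count was also 2 under quantile normalization and with double mutant libraries 1 and 2 alone. It was 3 under median centring, under the replicate block and with only the libraries compared. Among 10 kinetochore and centromere genes Spc25 (-0.92, 0.00172) and Spc105R (-0.43, 0.0155) fell and Mis12 (0.71, 0.0146) rose (median -0.35), and 2 of 10 called lower is no more than the 22.5% of all genes.

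The list of DNA replication had a median nearer to that of all genes. Of 19 genes of E2F and S phase 3 (15.8%) fell and 2 rose, with a median of -0.09. ago, whose product marks Cyclin E for destruction, fell by 0.71 (adjusted p = 0.00302) and Mcm7, of the replicative helicase, by 0.60 (0.0200). RnrL rose by 0.80 (0.00771) and Cdc45 by 0.59 (0.0308). PCNA, which was higher in the Sep2 mutant, ranged from 4.05 to 4.70 log2 CPM in double mutant libraries and from 4.04 to 4.72 in control libraries. Of the genes named from these cell cycle lists, Incenp, bora, fzy, vih, Rca1, Spindly, rod, Mcm7 and Cdc45 each lost their call without at least 1 library.

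**Figure D4:**
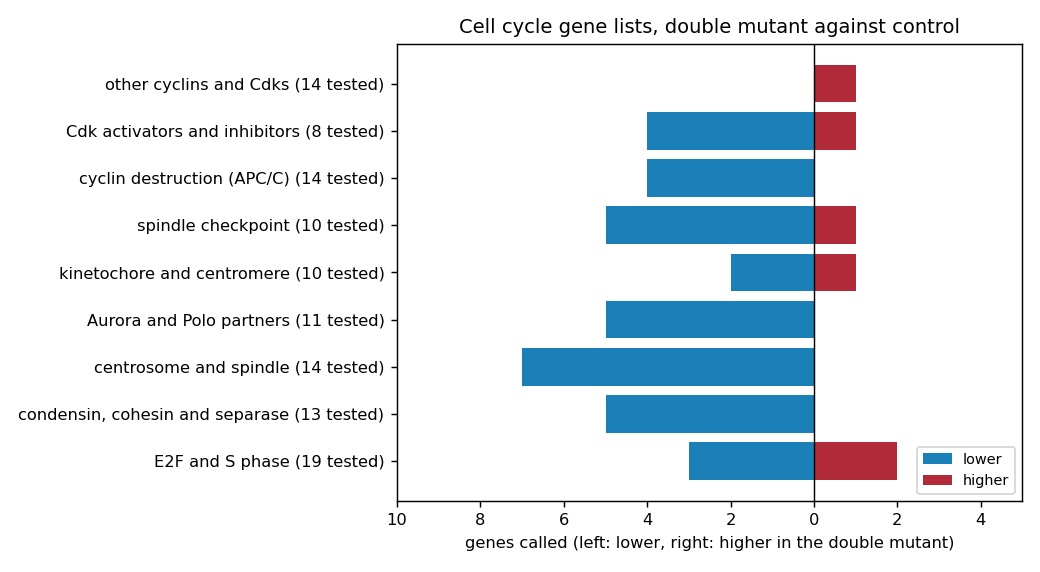
Number of genes called lower (left of 0) and higher (right of 0) in the double mutant against the control (limma adjusted p under 0.05) in 9 lists of cell cycle genes, with the number tested beside each name. The centrosome and spindle list has 7 lower and 0 higher of 14, the other cyclins and Cdks 0 lower and 1 higher of 14, and the E2F and S phase list 3 lower and 2 higher of 19.

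Markers of tissues that divide in the larva were read beside the 10 genes. Among all genes 22.5% were called lower and 22.5% higher in the double mutant against the control. In the early germline list the share called was 33.3% in either direction, not far from that of all genes. Of 10 imaginal disc markers 9 fell in the double mutant (median -1.15), led by Dll (-2.31, adjusted p = 6.02e-05), vg (-2.30, 0.000134) and ap (-0.98, 0.000283), while sd was at 0.01 and not called. Summed over the 10 markers, control libraries had 516 to 929 CPM, Sep2 mutant libraries 436 to 643, Sep5 mutant libraries 461 to 545 and double mutant libraries 308 to 426. Of 8 neuroblast markers 4 fell (median -0.44), among them brat (-1.83, 0.000322), grh (-0.57, 0.0211) and pros (-0.89, 0.0388). They summed to 348 to 532 CPM in double mutant libraries and 615 to 1153 in control libraries. That count was 1 without control replicate 4 or double mutant replicate 1 or 3 and under median centring, and 2 without control replicate 1. With double mutant libraries 1 and 2 alone the neuroblast count was 1 as well. Of 10 testis markers 4 fell, with betaTub85D (-1.52, 0.000995), Mst98Ca (-1.43, 0.00156) and bol (-0.81, 0.0115), from a sum of 754 to 1050 CPM in the control to 270 to 516. Among 6 tested markers of the early germline, with a median of 0.56, vas (1.14, 0.00591) and aub (0.70, 0.0239) rose, and 2 fell, bgcn (-0.99, 0.00280) among them, and osk had no read in any library. The 2 that fell were 1 without control replicate 1, 3 or 4 and without double mutant replicate 1 or 3. They were also 1 under median centring, with double mutant libraries 1 and 2 alone and with only the libraries compared.

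The genes were also set against the imaginal disc markers within each library. The log2 ratio of CycB to their summed level was -3.02 ± 0.35 in the control and -3.18 ± 0.38 in the double mutant (SD, n = 4 each). For CycA it was -3.25 ± 0.30 and -3.15 ± 0.31, for polo -2.69 ± 0.48 and -2.70 ± 0.34, and for stg -4.14 ± 0.18 and -4.35 ± 0.32. For CycD the ratio was -4.47 ± 0.40 in the control (range -4.89 to -4.10) and -3.64 ± 0.35 in the double mutant (-4.16 to -3.44). The ranges of both genotypes overlapped for all 5 of these genes. The ratio of Cdk1 was -5.15 ± 0.32 in the control, -4.91 ± 0.38 in the double mutant and -3.94 ± 0.59 in the Sep2 mutant. From control to double mutant CycB3 went from -4.10 to -4.29, CycE from -4.20 to -3.84, aurA from -4.94 to -4.61 and aurB from -5.97 to -5.72. The mean ratio of CycB was also close between control and double mutant for the other marker lists. It was -3.33 and -3.34 against the neuroblast markers and -3.375 and -3.32 against the testis markers. For CycD these means were -4.77 and -3.80, and -4.82 and -3.78. Single libraries varied more than the means of CycB. Within the control its ratio ranged from -3.43 to -2.60 for disc, -3.81 to -2.85 for neuroblast and -3.62 to -3.13 for testis markers.

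Between libraries of one genotype the disc markers varied with some of the 10 genes and against others. Control replicates 1 and 4 had the highest disc marker sums, 732 and 929 CPM against 516 and 572, and also the highest levels of CycB3, CycE and stg of the 4 controls. Control replicate 1 was however the lowest of the 4 for CycA, CycD, Cdk1, polo (6.45) and aurA (4.17), and polo (6.87) and aurA (4.75) were highest in replicate 2. Sep2 mutant replicate 2 had the lowest disc marker sum of its genotype (436 CPM) and the lowest stg (4.54), CycE (4.81) and CycB3 (5.12), but the highest Cdk1 (5.50), polo (6.89), aurA (4.78), CycA (6.36) and CycB (6.29). The part of the share of dividing tissue in the lower levels of the double mutant was not tested.

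Markers of other tissues were higher, lower or mixed in the double mutant, where 22.5% of all genes were called lower and 22.5% higher. The shares that fell among hemocyte markers (11.1%) and fat body markers (16.7%) were no more than that of all genes. Of 8 muscle markers 7 rose in the double mutant (median 1.82), including Mlc2 (2.35, adjusted p = 0.000932), up (2.08, 0.000640) and Tm2 (1.92, 0.000542). Their sum ranged over 29854 to 57505 CPM in double mutant libraries, 7522 to 22064 in control libraries, 11275 to 25743 with Sep2[2] alone and 23212 to 47913 with Sep5[2] alone. CPM values are shares of a library, so a gain of abundant transcripts lowers the shares of others before scaling. The scaling factors recovered from the files were 1.08 to 1.22 in the control and 0.799 to 0.843 in the double mutant. Salivary glue genes, which are switched on late in the instar, fell in 5 of 6 cases in the double mutant, with Sgs7 (-2.11, 0.00965), Sgs8 (-2.18, 0.00990) and Sgs3 (-2.09, 0.0133), and summed to 725 to 6179 CPM there. Control libraries had 4425 to 17616 CPM of them, Sep2 mutant libraries 17944 to 21157 and Sep5 mutant libraries 3732 to 14014. The count of 5 was 0 with double mutant libraries 1 and 2 alone, where Sgs3, Sgs7 and Sgs8 were not called, and 3 without control replicate 4 or double mutant replicate 3. Of 9 hemocyte markers 4 rose, among them Sr-CI (1.59, 0.000140), Ppn (1.29, 0.000812) and Pxn (1.39, 0.00100), and 1 fell, a call lost without any 1 of control replicates 1, 2 and 4, Sep2 mutant replicate 3, Sep5 mutant replicate 3 or the double mutant libraries. Of 6 fat body markers Lsp1beta (1.30, 0.00404) and Lsp1alpha (1.29, 0.0211) were among 3 that rose, and Fbp1 fell (-2.02, 0.00479). Among the named markers grh, pros, aub and Lsp1alpha each lost their call without at least 1 library. Of 8 neuron markers 0 were called by limma (median 0.14), with 1 at an unadjusted p under 0.05 and 0 by voom, and 2 fell without double mutant replicate 2 and 1 without control replicate 2. The parts of muscle and glue transcripts, of the stage within the instar and of the mitochondrial RNA share in the results for the 10 genes were not tested.

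**Figure D5:**
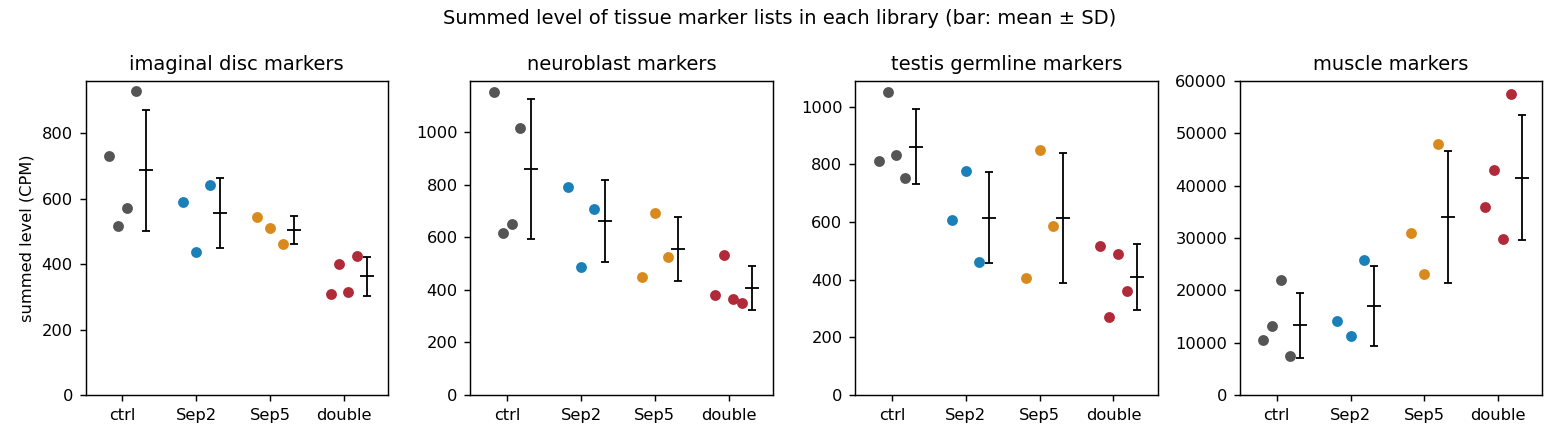
Summed level of 4 lists of tissue markers (CPM, y axis from 0) in every library by genotype; points are libraries and bars are mean ± SD. The imaginal disc sum is 308 to 426 CPM in the 4 double mutant libraries and 516 to 929 in the 4 controls, whereas the muscle sum is 29854 CPM or more in the double mutant and 22064 at most in the control.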

How the data were processed

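For 14 libraries the authors deposited log2 CPM values after TMM scaling, per the labels. The submitters' processing notes list STAR 2.7.11b, cutadapt 3.5, FastQC 0.11.9 and edgeR 3.40, with BDGP6 and dm6 as builds. The counter and its use of strand are not given in the sources used here. The larvae named in the sample labels go with protocol text on adult flies, reared at 25 degrees C.

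After subtraction of the lowest value (-3.65 log2 CPM, or 0.0797 CPM) on the linear scale, 100% of 212109 values were whole multiples of 1 read within 0.01 reads. This gave reads per library and an added count of 2.00 on average, which pulls fold changes of low genes towards 0. Replicates differed beyond counting error (chi-square per degree of freedom 27.0 to 313).

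Genes above 0 log2 CPM in at least 3 libraries were fitted with limma 3.58.1 in R 4.3.3 (genotype as the single term, all 14 libraries, intensity trend, robust). Each adjusted p is a Benjamini-Hochberg value over all 12586 genes of 1 of 7 comparisons, with 0.05 as the threshold. The number in parentheses after a gene is its log2 fold change, followed by its adjusted p. On simulated data the procedure called 52% to 55% of 2-fold changes and 98% to 100% of 4-fold changes of a mutant from the control. A gene that was not called may thus still differ by 2-fold. The 10 genes and 20 lists (197 of 199 members matched) were chosen with earlier results of these data known. Of each list up to 4 called genes with the smallest adjusted p in the double mutant are named (3 for markers), and for each of the 10 genes the 2 nearest in pattern. Positions are from Ensembl release 115 of BDGP6. No sequences are printed.

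Replicate numbers shared by genotypes are not tied to an animal or day in the labels. Deviations of same-numbered control and Sep2 mutant libraries correlated at 0.305, 0.452 and 0.166, all above 0.1, which held for no other pair of genotypes. Libraries of different numbers were not correlated for comparison. The main fit used no pairing, and the replicate block was an alternative fitted to all 14 libraries. Alternatives were no filter, a stricter filter, 1 CPM added, quantile normalization, median centring, plain variances, voom on recovered reads, a replicate block, double mutant libraries 1 and 2 alone, only the libraries compared (not for the interaction), and the omission of each library.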

Additional observations from a re-analysis of the deposited data

Results flagged for a closer look

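Of the 10 transcripts 2 met a rule for a second look, by a test of the interaction itself. Their difference between double and Sep2 mutant was unlike that between Sep5 mutant and control. Septin2 was lower in the double mutant than in the Sep2 mutant, so this cannot be assigned to the Sep5 mutation alone. For Cdk1 the interaction was -1.60 on the log2 scale (limma adjusted p = 0.00315). For CycA it was -0.80 (adjusted p = 0.0351, and 0.0593 with the replicate number as a block). In the 4-library genotypes no sample of the 10 genes stood apart from the others by Dixon's test, in 20 sets of values.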

How the results depend on the processing

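No sign of a called difference of the 10 genes turned under any alternative. Of 1670 values recomputed for single genes, 40 lost a call, 5 gained one, 36 changed sign without a call in either setting, and 1589 did none of these. Besides the omission of single libraries, the number of the 10 genes called moved as follows. Against the control the double mutant had 8 called, and 7 under median centring. Against the Sep5 mutant it had 4, and 1 with its libraries 1 and 2 alone, 3 with only the libraries compared and 5 under the replicate block. Between the single mutants Cdk1 was the 1 called gene, and 0 were called with only the libraries compared. The interaction had 2, and 1 under median centring, under the replicate block and with double mutant libraries 1 and 2 alone. With the double mutant's libraries 1 and 2 alone, genes called over the whole table were 1756 rather than 3640 against the Sep2 mutant, 405 rather than 1121 against the Sep5 mutant and 203 rather than 562 in the interaction. With only the libraries compared they were 350 rather than 646 in the Sep5 mutant, 631 rather than 1121 in the double mutant against the Sep5 mutant and 187 rather than 306 between the single mutants. The cause was not tested.

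Leaving out 1 library at a time gave 7 to 8 of the 10 genes called in the double mutant against the control (4812 to 5708 genes over the table), 1 to 1 in the Sep2 mutant (312 to 617) and 0 to 0 in the Sep5 mutant (238 to 1373, lowest without Sep5 mutant replicate 3 and highest without replicate 2). It gave 6 to 8 for the double against the Sep2 mutant (2017 to 3793), 1 to 4 against the Sep5 mutant (406 to 1195, lowest without Sep5 mutant replicate 2), 0 to 1 between the single mutants (155 to 342) and 1 to 2 in the interaction (226 to 613).

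With the replicate number as a block 528 genes were called in the Sep2 mutant, against 566, and 440 in the interaction. The block changed no call of the 10 genes other than those of CycA in the interaction and stg against the Sep5 mutant given above. Counts are limited by depth least for polo and CycB and most for aurB, with 71 reads in its lowest library, and 3 or 4 libraries a genotype limit every comparison.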
